A study of Mus musculus with 16 samples.

Results

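Neutrophils sorted from the lung were compared with neutrophils sorted from the blood of WT mice 12 hours post CLP, cecal ligation and puncture, a surgery in which gut bacteria leak into the abdomen and cause polymicrobial sepsis. The members were the samples labelled WT and CLP 12 hours, from lung and from blood. They are 4 of the 16 samples of the series and 6 of its 24 count files, with 3 files per tissue. All mice were males aged 8 to 12 weeks, none of those compared carried a deleted gene, and the labels of the lung group and the blood group differed only in the tissue. The methods of the study do not describe how each tissue was handled before staining, so handling and tissue cannot be told apart. The series also holds untreated (naive) WT mice, used here for a single comparison, and αD KO mice, which lack the integrin αD and were not used here. Cells were sorted as Ly6G+, CD11b+ and CD45.2+, so Ly6g, Itgam and Ptprc were part of the gate and are no finding between tissues. The gate does not separate neutrophils in lung vessels from those in lung tissue. Each group has 2 samples. Sample 1 of each group came as 2 count files, named 1a and 1b below, and sample 2 as a single file, named 2. The labels do not say whether libraries came from separate animals, or blood and lung from the same animal, so p-values measure only the spread between these libraries.

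Neutrophils are short-lived phagocytes that leave the bone marrow with most of their antimicrobial proteins already stored in granules. On entering inflamed tissue they can switch on new transcription, led by immediate early genes and by genes under NF-κB, among them chemokines that draw in further leukocytes. In sepsis the lung vessels hold large numbers of neutrophils, where these cells contribute to lung injury.

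The deposited counts of the 6 libraries at 12 hours summed to between 10628463 and 28488406 reads per library over 49315 genes, and those of the 6 naive WT libraries to between 5753476 and 29433699. Values below are CPM, the read count of a gene relative to the library total, scaled with TMM factors, always in the order of libraries 1a, 1b and 2, and a log2 fold change is lung minus blood with its standard error (SE). Lung library 1b stood apart from the other lung libraries. It was the shallowest of the 6 libraries, with 10628463 reads, and had counts in the most genes, 35731. Blood library 1b had counts in 33962 genes, and the other 4 libraries in 20504 to 24913. Library 1b was the shallowest with the most genes in each naive tissue too, with 38499 genes in naive blood and 38844 in naive lung. On the first principal component, which held 49.3% of the variance, the blood libraries lay at -58.6, -55.2 and -46.2 and the lung libraries at 100, -32.1 and 92. Across the 13590 genes tested, the Spearman correlation of lung library 1b was 0.93 with blood library 1b, and 0.862 and 0.876 with lung libraries 1a and 2. Lung libraries 1a and 2 correlated at 0.969 with each other. These correlations are across genes, which are not independent replicates. Because of this library, list counts are given with all 3 lung libraries and again without lung library 1b, save for some marker lists given as sums. For most named genes whose call differs, the value is given in both fits or the call of the other fit is stated. A gene with a fold change only without lung library 1b was not called by edgeR with all libraries and no block, where these genes had adjusted p-values of 0.097 (Gm43936) to 0.99 (Grn), though other tools called some of them on the same libraries. Calls below are those of edgeR unless another tool is named.

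With all 6 libraries, edgeR called 6 of 13590 genes higher in lung (0.0442%) and 0 lower (0%), at an adjusted p under 0.05 and a log2 fold change beyond 1. At an unadjusted p under 0.05 there were 2454 genes, 1490 higher (11%) and 964 lower (7.09%) in lung. DESeq2 on the same libraries called 687 higher (5.67%) and 189 lower (1.56%), and limma voom with quality weights called 1817 higher (13.4%) and 1508 lower (11.1%). Deviations of same-numbered blood and lung libraries correlated weakly, at 0.179 to 0.256, against -0.225 to 0.1 for unlike numbers. A block on the library number gave 64 genes higher (0.471%) and 1 lower (0.00736%). With the files of sample 1 summed, which leaves 2 samples per group, 469 genes were called higher and 279 lower. Without lung library 1b, 1534 of 14435 genes were called higher (10.6%) and 1382 lower (9.57%). Lung library 1b was singled out because it lay near blood in these same values. The p-values without it, here and below, are therefore likely too small. Among the 1534 genes, lung library 1b lay at or below the highest blood library for 877. Without any test, all 3 lung libraries lay above all 3 blood libraries for 1372 of 13590 genes (10.1%) and below them for 1840 (13.5%). The median log2 fold change over all genes tested was 0.03 with all libraries and -0.11 without lung library 1b.

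Of the 6 genes called with all libraries, 4 are genes of lung structural cells, 1 is an immediate early gene and 1 is a transcript of unknown class. Cav1, the main coat protein of caveolae in endothelium (chromosome 6, 17306335 to 17341452 on GRCm38), was at 0, 0.0902 and 0 CPM in blood and 5.31, 15.7 and 10.7 CPM in lung. The blood libraries held 2 Cav1 counts in all against 550 in lung, which gives a 327-fold ratio (95% counting interval 90.2 to 2710) (adjusted p = 0.048). Epas1, a hypoxia-inducible factor of endothelial cells (chromosome 17, 86753907 to 86833410), was at 0.0398, 0.316 and 0 CPM in blood and 19.7, 16.9 and 28.8 CPM in lung. Every lung library was far above every blood library for both genes. Sparc, a matrix glycoprotein (chromosome 11, 55394500 to 55423183), was at 0.0398, 0.271 and 0.0972 CPM in blood and 6.97, 13.9 and 13.4 CPM in lung, and its log2 fold change was 6.35 ± 0.70 (adjusted p = 0.048). Cyp4b1, a cytochrome P450 of the airway (chromosome 4, 115624725 to 115647723), was at 0.159, 0.226 and 0.0486 CPM in blood and 5.04, 11.2 and 8.69 CPM in lung, with a log2 fold change of 5.77 ± 0.65 (adjusted p = 0.048). For Epas1 the log2 fold change was 7.46 ± 0.86 (adjusted p = 0.048). In all 4 genes lung library 1b was near or above lung library 1a, and all 6 genes were called again without it and with the block. Leaving out any other single library ended the call of all 6 genes (adjusted p from 0.0713 to 0.544), and the 4 WT groups in a single fit ended it for the 4 lung cell genes (0.145 to 0.165). Where each library had to hold 10 or more counts, 1 gene was called, Gm37352. Gm37352 (chromosome 8, 84200869 to 84203049), of biotype TEC, was at 1.35, 2.66 and 2.58 CPM in blood and 43.1, 40.3 and 69.7 CPM in lung, with a log2 fold change of 4.54 ± 0.42 (adjusted p = 0.048).

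Markers of lung cells were also measured as whole lists. The 16 markers of lung endothelium and stroma summed to 11.5 to 20.1 CPM in blood and to 93.8, 105 and 118 CPM in lung, and 13 of the 16 were above all blood libraries in every lung library, against 10.1% of all genes. Of the 16, 1 was called higher with all libraries (Epas1), 7 without lung library 1b and 5 with the block. Over all genes these shares were 0.0442%, 10.6% and 0.471%. None of the 16 was at 0 in all lung libraries. The 15 markers of lung epithelium summed to 494 to 710 CPM in blood and to 611, 722 and 1090 CPM in lung. Of the 15, 6 were above all blood libraries in every lung library. Among the 10 that were tested, 4 were, against 10.1% of all genes. With all libraries 0 of the 10 were called, and without lung library 1b 3 were called higher, against 10.6% of all genes. Most of the sum came from Napsa, an aspartic protease, which overlapped, and the members next described are those the naming rule gave. Sftpc, a surfactant protein of alveolar type II cells, was at 0.119, 0 and 0 CPM in blood and 5.5, 12.1 and 15.9 CPM in lung. On 3 blood counts this is a 254-fold ratio (95% counting interval 86.4 to 1230), with an adjusted p of 0.056. Scgb1a1, the secretoglobin of club cells, was at 0.159, 0.226 and 0.292 CPM in blood and 4.67, 328 and 165 CPM in lung. Its log2 fold change was 9.50 ± 1.54 (adjusted p = 0.073), and the lung libraries themselves ranged widely. Epcam and Hopx, chosen after their values were seen, overlapped, with log2 fold changes of 0.21 and 0.05. Among the genes of smallest p, Timp3, Adgrf5, Emp2 and Tspan7, all known from lung vessels or epithelium, had log2 fold changes of 4.77, 4.92, 5.74 and 5.65, each with no overlap between tissues and an adjusted p of 0.072. With the block all 4 passed, with adjusted p-values of 0.026, 0.03, 0.039 and 0.036, as did Sftpc at 0.03 and Scgb1a1 at 0.026. All 6 were also called without lung library 1b, with adjusted p-values of 0.0028 for Sftpc to 0.0068 for Scgb1a1. The endothelial and stromal markers moved with the lung group in all 3 lung libraries, and their part in the results below was not tested. In these bulk samples, fewer cells of a type and less RNA per cell cannot be told apart.

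Among the 21 functional lists, immediate early genes had the largest share of members called higher in lung without lung library 1b. They are switched on within minutes of a signal without new protein synthesis, and many encode transcription factors of the AP-1, EGR and NR4A families or the phosphatases that end MAP kinase signalling. Of 30 members, 27 were called higher and 0 lower without lung library 1b, against 10.6% and 9.57% of all genes. The same shares apply to each list below, and 10.1% and 13.5% of all genes apply to counts of members higher and lower without overlap. With all libraries, 1 of 29 was called (Fosb), 17 did not overlap and were higher, 0 were lower without overlap, and the median log2 fold change was 2.8 against 0.03 over all genes tested. DESeq2 called 25 members higher. With the block, 4 members were called higher, namely Fos, Fosb, Atf3 and Rgs1.

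Fosb, an AP-1 subunit (chromosome 7, 19302696 to 19310051), was at 0.358, 0.631 and 0.486 CPM in blood and 8.69, 9.09 and 18.5 CPM in lung. Its paralog Fos was at 275, 249 and 427 CPM in blood and 1753, 1580 and 2565 CPM in lung. In both genes lung library 1b was close to lung library 1a, and no lung library overlapped blood. The log2 fold change was 4.61 ± 0.51 (adjusted p = 0.048) for Fosb and 2.63 ± 0.41 (adjusted p = 0.073) for Fos. For Fos the adjusted p was 0.036 with the block and 0.0036 without lung library 1b. Fos, and further on Junb, Nr4a1, Egr1, Tnf, Mmp8, Anxa1 and Ngp, were chosen after their values were seen. Dusp1, the phosphatase that switches off p38 and JNK, was at 1878, 1270 and 2072 CPM in blood and 13050, 4277 and 18980 CPM in lung. Dusp5, a nuclear ERK phosphatase, was at 10.2, 11.3 and 10.7 CPM in blood and 453, 60.3 and 789 CPM in lung. Neither overlapped, but lung library 1b lay between the blood libraries and the other lung libraries in both. Their log2 fold changes without lung library 1b were 3.19 ± 0.36 (adjusted p = 0.0027) and 5.84 ± 0.35 (adjusted p = 0.00099), and with all libraries 2.80 ± 0.60 (adjusted p = 0.12) and 5.34 ± 0.87 (adjusted p = 0.073). The third such gene was Junb, an AP-1 subunit, at 715, 575 and 700 CPM in blood and 3412, 1117 and 4005 CPM in lung, and its log2 fold change was 2.10 ± 0.51 (adjusted p = 0.13) with all libraries and 2.47 ± 0.29 (adjusted p = 0.0027) without lung library 1b.

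In a further set of immediate early genes lung library 1b was far below the other lung libraries. Nr4a1, an orphan nuclear receptor, was at 170, 99 and 218 CPM in blood and 3809, 174 and 4764 CPM in lung. Nr4a2 was at 0.0398, 0.586 and 0.194 CPM in blood and 24.1, 1.69 and 48.6 CPM in lung, and Maff, a small Maf protein, at 0.517, 0.586 and 0.632 CPM in blood and 31, 0.98 and 64.8 CPM in lung. For Nr4a1 lung library 1b lay within the range of blood, and for Nr4a2 and Maff it was above blood by a smaller margin than the other lung libraries were. The log2 fold changes without lung library 1b were 4.71 ± 0.41 (adjusted p = 0.0015) for Nr4a1, 7.05 ± 0.71 (adjusted p = 0.0019) for Nr4a2 and 6.36 ± 0.42 (adjusted p = 0.00099) for Maff. With all libraries, the adjusted p-values of the 3 genes were 0.14, 0.11 and 0.12. Zfp36, which binds AU-rich mRNA and speeds its decay, was at 793, 670 and 824 CPM in blood and 4391, 772 and 4093 CPM in lung, and lung library 1b lay inside blood. Dusp2, a phosphatase of MAP kinases, was at 6.08, 24.9 and 4.47 CPM in blood and 375, 53.4 and 814 CPM in lung, without overlap. Dusp2 was called without lung library 1b but not with all libraries. Egr1, a zinc finger factor, was at 9.02, 133 and 12.1 CPM in blood and 868, 291 and 1421 CPM in lung. Here blood library 1b stood above the other blood libraries, and the log2 fold change was 4.06 ± 1.15 (adjusted p = 0.16) with all libraries and 4.47 ± 1.09 (adjusted p = 0.025) without lung library 1b.

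**Figure D1:**
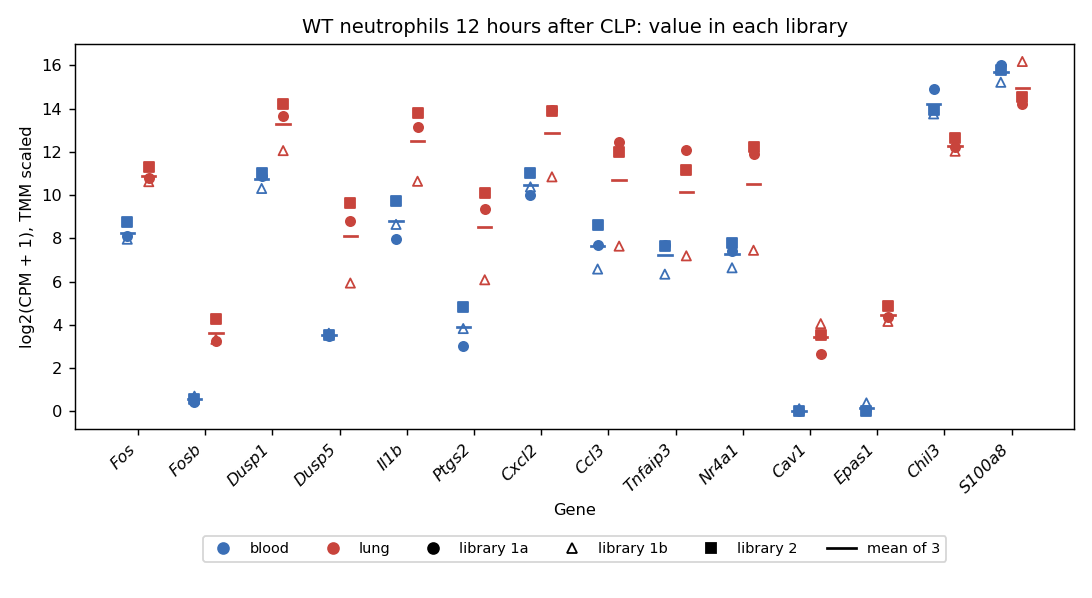
Value of 14 genes in each of the 6 libraries of WT neutrophils at 12 hours after CLP, as log2(CPM + 1) on the vertical axis, with blood in blue, lung in red, open triangles for library 1b and a bar at the mean of 3 libraries. Fos, Fosb, Cav1 and Epas1 were high in all 3 lung libraries, while for Cxcl2, Ccl3, Tnfaip3 and Nr4a1 the open red triangle sits among the blue points.

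The median over a list showed the same split. Taken as the difference from the mean of blood on the log2(CPM + 1) scale, the median of the immediate early genes was 3.08 in lung libraries 1a and 2 together and 0.52 in lung library 1b. For the NF-κB list these medians were 1.84 and -0.06, and for the markers of lung endothelium and stroma 1.39 and 2.25. Over all genes tested they were -0.05 and 0.01. Of these lists, lung library 1b had the higher median for the lung cell markers and the lower one for the immediate early and NF-κB genes.

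**Figure D2:**
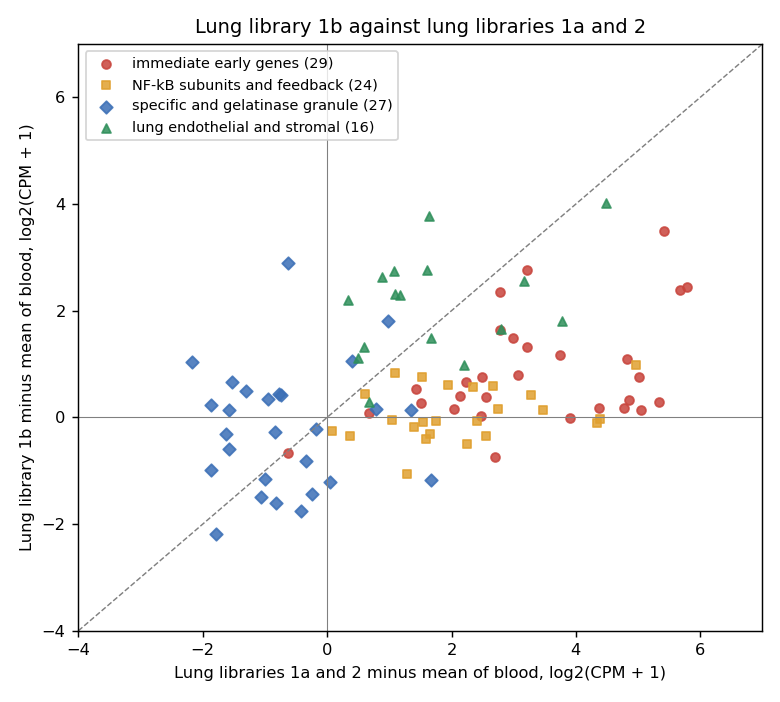
Difference from the mean of the 3 blood libraries on the log2(CPM + 1) scale, for lung libraries 1a and 2 (mean, horizontal axis) and for lung library 1b (vertical axis), with 1 point per tested gene of 4 lists and a dashed line of equality. All 29 immediate early and 24 NF-κB genes lie below the line, and 9 of the 16 markers of lung endothelium and stroma lie on or above it.

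Chemokine ligands recruit leukocytes, and those that bind CXCR2 or CCR1 act on neutrophils themselves. Of 13 tested ligands, 6 were called higher in lung and 0 lower without lung library 1b, against 10.6% and 9.57% of all genes. There were 0 calls with all libraries, 1 (Ccl9) was higher without overlap, and the median log2 fold change was 1.75. DESeq2 called 4 ligands higher on all libraries and limma voom 7, and 6 had an unadjusted p under 0.05 in edgeR, all higher. Cxcl2, a CXCR2 ligand, was at 1019, 1336 and 2080 CPM in blood and 15580, 1843 and 15410 CPM in lung. Cxcl1, another CXCR2 ligand, was at 2.86, 1.67 and 10.9 CPM in blood and 191, 6.06 and 290 CPM in lung, and Cxcl3 at 33.5, 32.3 and 179 CPM in blood and 1799, 55.9 and 1902 CPM in lung. In each of these lung libraries 1a and 2 were far above blood, and lung library 1b lay within blood. Without it, the log2 fold changes were 3.38 ± 0.38 (adjusted p = 0.0027) for Cxcl2, 5.54 ± 0.75 (adjusted p = 0.0041) for Cxcl1 and 4.50 ± 0.76 (adjusted p = 0.0079) for Cxcl3. With it, they were 2.89 ± 0.78 (adjusted p = 0.15), 4.98 ± 1.31 (adjusted p = 0.14) and 3.94 ± 1.24 (adjusted p = 0.18). Ccl3, which binds CCR1, was at 208, 95.1 and 395 CPM in blood and 5662, 199 and 4068 CPM in lung. Ccl4, its neighbour, was at 214, 8.57 and 216 CPM in blood and 2226, 53.8 and 1818 CPM in lung, and lung library 1b overlapped blood for both. The log2 fold change of Ccl3 was 4.38 ± 0.57 (adjusted p = 0.0038) without lung library 1b and 3.83 ± 1.10 (adjusted p = 0.16) with it. Ccl4 passed with the block, with a log2 fold change of 3.04 and an adjusted p of 0.03.

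Because these CXCR2 ligands were high in the same libraries, their promoters are shown, with that of Nfkbia, which encodes the inhibitor IκBα and is itself a known target of NF-κB. The sequences are from RefSeq on GRCm38.p6 and run 5′ to 3′ on the strand of the gene, ending at the base before the gene in the files or before the RefSeq start, whichever comes first. Capitals mark each match to the kappa B motif, which is GGG, any 3 bases and TTCC, on either strand. Matches on opposite strands can overlap.
Cxcl1 (chr5:90890995-90891240, + strand): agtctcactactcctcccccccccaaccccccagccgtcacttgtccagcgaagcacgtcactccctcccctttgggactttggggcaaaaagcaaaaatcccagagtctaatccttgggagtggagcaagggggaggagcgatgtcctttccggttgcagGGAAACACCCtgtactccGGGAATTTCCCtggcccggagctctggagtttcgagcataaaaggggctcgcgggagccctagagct
Cxcl2 (chr5:90903649-90903870, + strand): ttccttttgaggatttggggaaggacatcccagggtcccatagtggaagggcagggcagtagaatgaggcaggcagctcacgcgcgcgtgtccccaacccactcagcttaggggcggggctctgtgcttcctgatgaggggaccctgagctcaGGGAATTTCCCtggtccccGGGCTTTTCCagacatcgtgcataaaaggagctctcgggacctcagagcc
Cxcl3 (chr5:90785851-90786100, + strand): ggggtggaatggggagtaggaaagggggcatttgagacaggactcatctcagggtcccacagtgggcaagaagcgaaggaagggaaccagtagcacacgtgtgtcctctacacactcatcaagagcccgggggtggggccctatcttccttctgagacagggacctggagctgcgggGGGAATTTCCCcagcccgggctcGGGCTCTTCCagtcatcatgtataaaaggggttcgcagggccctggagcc
Nfkbia (chr12:55492648-55492897, - strand): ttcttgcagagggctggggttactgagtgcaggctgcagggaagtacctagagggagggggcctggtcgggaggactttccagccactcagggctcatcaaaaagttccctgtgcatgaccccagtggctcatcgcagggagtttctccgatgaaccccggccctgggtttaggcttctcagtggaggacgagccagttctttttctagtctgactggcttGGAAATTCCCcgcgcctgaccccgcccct
The kappa B letters occurred within 250 bases before the RefSeq start in 6 of 12 chemokine ligands with a promoter sequence (50%) and in 7 of 20 members of the NF-κB list (35%). They occurred in 1271 of 27017 promoters of all genes (4.7%) and in 5.26% of those of genes tested. Among immediate early genes they occurred in 1 of 23 (4.35%). The AP-1 letters TGANTCA occurred in 0 of 23 immediate early genes against 6.84% of all promoters and 4.48% of those of genes tested. The hypoxia core ACGTG occurred in 11 of 23 immediate early genes (47.8%), in 14 of 28 genes of glycolysis and hypoxia (50%), in 16.5% of all promoters and in 21.7% of those of genes tested. A match describes the letters only and does not show that a factor binds there.

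Genes of the NF-κB system differed in the same libraries. NF-κB factors are held in the cytoplasm by inhibitors and, once released, induce those same inhibitors and the enzymes that end the signal. Of 24 members, 15 were called higher and 0 lower without lung library 1b. With all 3 lung libraries 0 were called, 3 were higher without overlap (Nfkbiz, Bcl3 and Tnfaip2) and 0 lower, and the median log2 fold change was 1.42. On the same libraries DESeq2 called 9 members higher and limma voom 13, and 12 had an unadjusted p under 0.05 in edgeR, all higher. Tnfaip3 (A20), a ubiquitin-editing enzyme that ends NF-κB signalling, was at 206, 80.5 and 200 CPM in blood and 4328, 146 and 2268 CPM in lung. Nfkbia was at 1687, 737 and 1317 CPM in blood and 6115, 923 and 7787 CPM in lung, and Traf1, an adaptor of TNF receptors, at 58.7, 30.8 and 47.9 CPM in blood and 1059, 40.9 and 795 CPM in lung. Lung library 1b lay within blood for all 3 genes, and the other lung libraries were above it. Leaving out lung library 1b, the log2 fold changes were 4.33 ± 0.50 (adjusted p = 0.0027) for Tnfaip3, 2.47 ± 0.40 (adjusted p = 0.0067) for Nfkbia and 4.33 ± 0.36 (adjusted p = 0.0014) for Traf1. The adjusted p-values with all libraries were 0.15, 0.22 and 0.14. Nlrp3, the sensor of the inflammasome that matures IL-1β, was at 9.62, 14.1 and 38.4 CPM in blood and 556, 35.6 and 596 CPM in lung, with a log2 fold change of 4.79 ± 0.58 (adjusted p = 0.003) without lung library 1b and 4.26 ± 1.03 (adjusted p = 0.13) with it. Nfkbid, a nuclear member of the IκB family, was at 74.5, 57.6 and 48.1 CPM in blood and 584, 64.9 and 752 CPM in lung, and its log2 fold change without lung library 1b was 3.46 ± 0.31 (adjusted p = 0.0015).

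Cytokines and growth factors had 17 of 29 members called higher and 0 lower without lung library 1b. With all libraries 0 of 26 were called, 8 were higher and 3 lower without overlap, and the median log2 fold change was 2.12. With all libraries DESeq2 called 9 higher and limma voom 17, and at an unadjusted p under 0.05 edgeR had 17 higher and 1 lower. Il1b, the precursor of the pyrogenic cytokine IL-1β, was at 247, 401 and 860 CPM in blood and 9148, 1600 and 14110 CPM in lung. Its lowest lung value, in library 1b, was above its highest blood value. The log2 fold change was 4.04 ± 0.87 (adjusted p = 0.12) with all libraries and 4.53 ± 0.56 (adjusted p = 0.0032) without lung library 1b. Il23a, the p19 subunit of IL-23, was at 0.278, 0.0451 and 0.535 CPM in blood and 35.9, 6.68 and 133 CPM in lung, again without overlap. It passed with the block, at a log2 fold change of 7.44 and an adjusted p of 0.0041, and had 7.67 ± 1.28 (adjusted p = 0.073) with all libraries and no block and 8.20 ± 0.81 (adjusted p = 0.0019) without lung library 1b. Il1a also passed with the block, with an adjusted p of 0.026, at 16.1, 0.902 and 32.1 CPM in blood and 191, 12.7 and 214 CPM in lung. Lung library 1b lay within blood. The gene overlaps a transcript on the other strand, Gm14023, and the strand of counting is not given in the sources used here. The same limit holds for Cav1 with Gm15581, Il1b with Il1bos, Mt2 with Gm45774, Dnajc19 with Fxr1, Ms4a6c with BE692007, Timp3 with Syn3 and Prtn3 with Plppr3.

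Tnf, which encodes the cytokine TNF, was at 110, 68.5 and 112 CPM in blood and 906, 65.1 and 820 CPM in lung, so that lung library 1b lay below every blood library while lung libraries 1a and 2 were above them. Its log2 fold change without lung library 1b was 3.15 ± 0.31 (adjusted p = 0.0019), and with it the adjusted p was 0.18. Csf3, which encodes G-CSF, the growth factor of neutrophils, was at 11.1, 1.26 and 16 CPM in blood and 293, 2.05 and 118 CPM in lung. Csf3 was low in every blood library and in lung library 1b. Its log2 fold change was 4.43 ± 0.87 (adjusted p = 0.012) without lung library 1b and 3.87 ± 1.45 (adjusted p = 0.22) with it. Il1rn, the antagonist of the IL-1 receptor, was at 948, 173 and 2038 CPM in blood and 7205, 835 and 5625 CPM in lung, and overlapped between tissues. The log2 fold change of Il1rn was 2.11 ± 0.98 (adjusted p = 0.30) with all libraries and 2.59 ± 0.79 (adjusted p = 0.052) without lung library 1b.

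**Figure D3:**
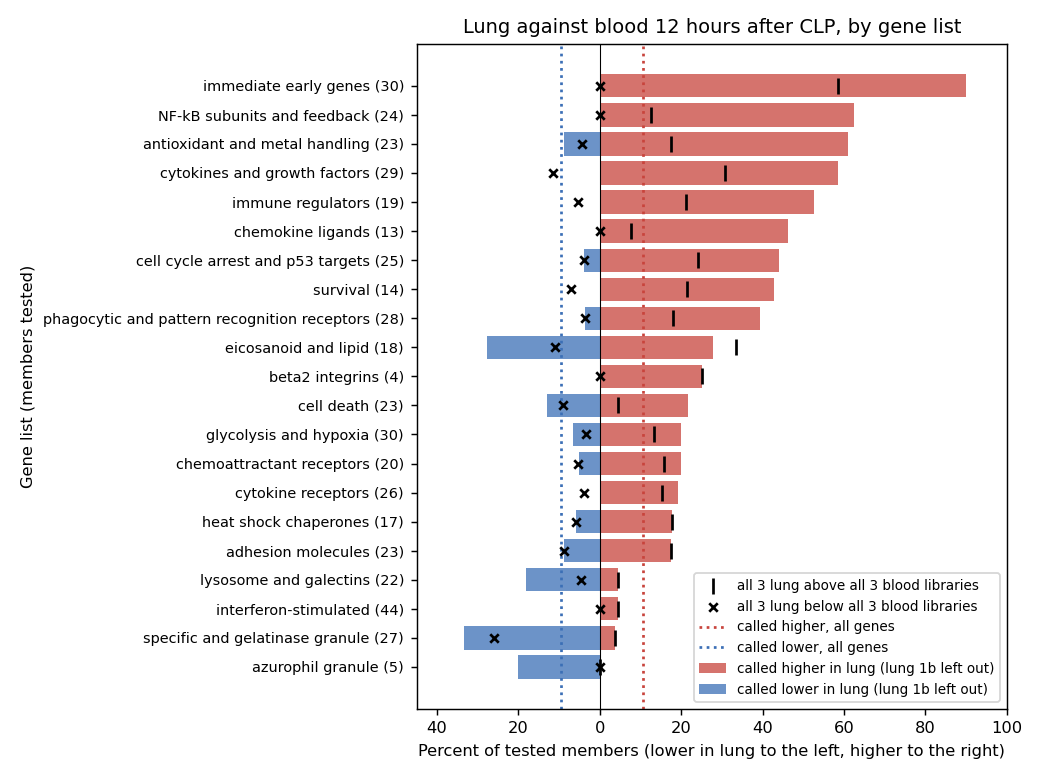
Share of tested members of each of the 21 functional lists called higher (red) or lower (blue) in lung when lung library 1b is left out, with black bars and crosses for members in which all 3 lung libraries lay above or below all 3 blood libraries, and dotted lines for all genes tested. Immediate early genes lead with 27 of 30 called higher, and the specific and gelatinase granule list has the largest share called lower, 9 of 27.

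Of the chemoattractant receptors, 4 of 20 were called higher and 1 lower (Ccr2) without lung library 1b, and with all libraries 3 of 19 were higher and 1 lower without overlap, with a median log2 fold change of 0.28. edgeR called 0 with all libraries, with 4 higher and 1 lower at an unadjusted p under 0.05, while DESeq2 called 3 higher and limma voom 4 higher and 2 lower. Over all genes 10.6% and 9.57% were called, and 10.1% and 13.5% did not overlap, so the 3 and 1 members without overlap differ from that background by few genes. Ccrl2, an atypical receptor that binds chemerin and presents it to other cells, was at 137, 50.6 and 189 CPM in blood and 3559, 298 and 3990 CPM in lung. Its lowest lung value was above its highest blood value, its log2 fold change was 4.38 ± 0.98 (adjusted p = 0.12), and it passed with the block at an adjusted p of 0.036 and without lung library 1b at 0.0027. Cxcr4, which retains neutrophils in the bone marrow, was at 6.92, 16.5 and 14 CPM in blood and 58.8, 18.8 and 128 CPM in lung, and S1pr1, a receptor for sphingosine-1-phosphate that lung endothelium also expresses, at 0.477, 1.4 and 4.23 CPM in blood and 10.2, 10.6 and 19.6 CPM in lung. Neither gene overlapped between tissues, and their log2 fold changes were 2.46 ± 0.67 (adjusted p = 0.15) and 2.73 ± 0.74 (adjusted p = 0.15), and without lung library 1b 2.90 ± 0.45 (adjusted p = 0.006) and 2.88 ± 0.74 (adjusted p = 0.03). Ptafr, the receptor for platelet-activating factor, was at 98.7, 57 and 114 CPM in blood and 427, 86.6 and 337 CPM in lung, with 2.07 ± 0.34 (adjusted p = 0.0072) without lung library 1b. The receptors of this list with the most reads, C5ar1 and Fpr1, overlapped between tissues. C5ar1, the receptor for complement C5a, was at 2257, 1162 and 1847 CPM in blood and 3521, 1269 and 4079 CPM in lung, and Fpr1, which senses bacterial formyl peptides, at 2588, 1018 and 2311 CPM in blood and 3915, 1348 and 1674 CPM in lung, with log2 fold changes of 0.75 ± 0.51 (adjusted p = 0.45) and 0.23 ± 0.54 (adjusted p = 0.85).

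Cytokine receptors had 5 of 26 members called higher and 0 lower without lung library 1b. There were 0 calls with all libraries, 4 were higher and 1 lower without overlap, and the median log2 fold change was 0.59. DESeq2 called 4 members higher there and limma voom 5, with 5 higher and 1 lower at an unadjusted p under 0.05 in edgeR. Of all genes, 10.6% and 9.57% were called and 10.1% and 13.5% did not overlap. Il10ra, a chain of the receptor for IL-10, was at 74.2, 65.7 and 78.8 CPM in blood and 620, 74.5 and 604 CPM in lung, and Tnfrsf1b, TNF receptor 2, at 420, 221 and 597 CPM in blood and 1730, 444 and 1195 CPM in lung. Lung library 1b lay within blood for both, and without it the log2 fold changes were 3.06 ± 0.26 (adjusted p = 0.0014) and 1.81 ± 0.42 (adjusted p = 0.022). Tnfrsf1a, TNF receptor 1, was at 167, 183 and 198 CPM in blood and 293, 345 and 469 CPM in lung, higher in all 3 lung libraries, with 1.02 ± 0.32 (adjusted p = 0.18) with all libraries and 1.05 ± 0.29 (adjusted p = 0.037) without lung library 1b. Il1r2, a decoy receptor for IL-1, was at 3478, 3384 and 3469 CPM in blood and 9013, 1490 and 9659 CPM in lung. Here lung library 1b was the lowest of the 6 libraries, and the log2 fold change was 0.96 ± 0.64 (adjusted p = 0.44) with it and 1.43 ± 0.28 (adjusted p = 0.013) without it. Csf3r, the receptor for G-CSF, was at 993, 915 and 1819 CPM in blood and 2407, 1710 and 2605 CPM in lung, with 0.85 ± 0.41 (adjusted p = 0.31), and the tissues overlapped.

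Phagocytic and pattern recognition receptors had 11 of 28 members called higher and 1 lower without lung library 1b. With all libraries 5 were higher and 1 lower without overlap, 0 were called, and the median log2 fold change was 0.75. For this list DESeq2 called 6 higher and limma voom 10 higher and 1 lower, and 8 had an unadjusted p under 0.05 in edgeR, all higher. Clec7a (dectin-1), a receptor for fungal β-glucan, was at 9.66, 14.7 and 24.4 CPM in blood and 166, 44.7 and 218 CPM in lung, and Clec4n (dectin-2) at 10.1, 7.35 and 18.8 CPM in blood and 35.3, 23.9 and 176 CPM in lung. All lung libraries were above all blood libraries for both, with log2 fold changes of 3.14 ± 0.63 (adjusted p = 0.11) and 2.70 ± 0.78 (adjusted p = 0.16). They were 3.56 ± 0.40 (adjusted p = 0.0027) and 3.13 ± 0.65 (adjusted p = 0.015) without lung library 1b. Cd14, the co-receptor for bacterial lipopolysaccharide, was at 1947, 1055 and 1131 CPM in blood and 9673, 1394 and 11000 CPM in lung, so that lung library 1b lay inside blood, and the log2 fold change was 2.90 ± 0.37 (adjusted p = 0.0036) without it and 2.42 ± 0.74 (adjusted p = 0.17) with it. Clec4d, another C-type lectin, was at 119, 66.9 and 192 CPM in blood and 904, 107 and 832 CPM in lung, with 2.77 ± 0.43 (adjusted p = 0.0057) without lung library 1b. Fcer1g, the signalling chain shared by Fc receptors and several lectins, was at 1711, 1025 and 1892 CPM in blood and 2755, 2023 and 2584 CPM in lung. Its tissues did not overlap, but the log2 fold change was small, at 0.67 ± 0.38 (adjusted p = 0.38).

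Among β2 integrins, which pair Itgb2 with 1 of 4 α chains and carry neutrophil adhesion, Itgax alone was free of overlap between tissues. Of the 4 tested, 0 were called with all libraries. Without lung library 1b, 1 was called higher (Itgax) and 0 lower, against 10.6% and 9.57% of all genes. DESeq2 and limma voom each called 1 higher on all libraries. Itgax (αX) was at 2.62, 4.01 and 1.94 CPM in blood and 7.71, 7.57 and 31.9 CPM in lung, with a log2 fold change of 2.46 ± 0.65 (adjusted p = 0.14) with all libraries and 2.79 ± 0.58 (adjusted p = 0.015) without lung library 1b. Itgb2 was at 2271, 1958 and 1969 CPM in blood and 1845, 1713 and 2121 CPM in lung, Itgal (αL) at 205, 205 and 223 CPM in blood and 121, 380 and 286 CPM in lung, and Itgam (αM), part of the sort gate, at 883, 576 and 1063 CPM in blood and 642, 671 and 995 CPM in lung. The tissues overlapped for these 3 genes, and their log2 fold changes were -0.13 ± 0.33 (adjusted p = 0.87), 0.32 ± 0.43 (adjusted p = 0.72) and -0.13 ± 0.38 (adjusted p = 0.88). Itgad (αD) had 11 counts over the 3 blood libraries and 18 over the 3 lung libraries. It was at 0.0398, 0.361 and 0.0972 CPM in blood and 0.139, 0.98 and 0.166 CPM in lung and did not pass the filter on low counts. Ptprc, which encodes CD45, was at 1411, 1055 and 1565 CPM in blood and 2130, 875 and 1378 CPM in lung, and overlapped.

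The wider list of adhesion molecules had 4 of 23 members called higher and 2 lower without lung library 1b, against 10.6% and 9.57% of all genes. With all libraries 4 were higher and 2 lower without overlap, 0 were called, and the median log2 fold change was 0.48. On all libraries DESeq2 called 3 higher and limma voom 4 higher and 2 lower, and the unadjusted p in edgeR was under 0.05 for 4 higher and 1 lower. Icam1, a ligand of β2 integrins, was at 149, 31.1 and 96 CPM in blood and 910, 34.6 and 740 CPM in lung, with lung library 1b inside blood and a log2 fold change of 3.15 ± 0.57 (adjusted p = 0.0096) without it. Jaml, a junctional adhesion molecule of leukocytes, was at 2.46, 6.4 and 21 CPM in blood and 31.3, 27.3 and 183 CPM in lung, above blood in every lung library. It passed with the block, with an adjusted p of 0.036, and had 3.02 ± 0.98 (adjusted p = 0.19) with all libraries and no block and 3.43 ± 0.92 (adjusted p = 0.035) without lung library 1b. Itga5, the α chain of the fibronectin receptor, was at 25.8, 22.2 and 60.7 CPM in blood and 94.2, 54.7 and 107 CPM in lung. It was called without lung library 1b but not with all libraries. Cd177, a surface glycoprotein of neutrophils that is stored in specific granules, was at 9274, 5334 and 5326 CPM in blood and 2180, 4144 and 2147 CPM in lung, below blood in every lung library, with -1.24 ± 0.46 (adjusted p = 0.22) with all libraries and -1.63 ± 0.38 (adjusted p = 0.022) without lung library 1b. Selplg, the ligand of P-selectin, was at 1026, 1115 and 1642 CPM in blood and 1095, 2156 and 2028 CPM in lung, and overlapped.

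Antioxidant and metal handling genes had 14 of 23 members called higher and 2 lower without lung library 1b. With all 3 lung libraries 0 were called, 4 were higher and 1 lower without overlap, and the median log2 fold change was 1.43. Of these genes DESeq2 called 8 higher and 1 lower and limma voom 14 and 2, and 13 higher and 1 lower had an unadjusted p under 0.05 in edgeR. Slc7a11, the cystine transporter that feeds glutathione synthesis, was at 186, 159 and 318 CPM in blood and 3266, 125 and 2926 CPM in lung. The metallothioneins, which bind zinc and copper, were at 26.1, 62.2 and 36.2 CPM in blood and 708, 8.73 and 354 CPM in lung for Mt1 and at 1.15, 0.676 and 0.875 CPM in blood and 37.2, 0.802 and 24.3 CPM in lung for Mt2. Lung library 1b was below blood for Slc7a11 and Mt1 and within blood for Mt2, and the other lung libraries were far above. On leaving lung library 1b out, the log2 fold changes were 3.80 ± 0.38 (adjusted p = 0.0019) for Slc7a11, 3.67 ± 0.45 (adjusted p = 0.0032) for Mt1 and 5.07 ± 0.37 (adjusted p = 0.001) for Mt2. With all libraries, the adjusted p-values were 0.18, 0.22 and 0.13. The ferritin chains, which store iron, were at 8713, 3362 and 9148 CPM in blood and 32710, 8169 and 24360 CPM in lung for Fth1 and at 2727, 1445 and 3737 CPM in blood and 10530, 3321 and 19280 CPM in lung for Ftl1, and their log2 fold changes without lung library 1b were 2.00 ± 0.47 (adjusted p = 0.022) and 2.49 ± 0.47 (adjusted p = 0.011). Srxn1, a sulfiredoxin, was at 8.27, 3.79 and 18.1 CPM in blood and 48.7, 11.4 and 155 CPM in lung, with 3.34 ± 0.68 (adjusted p = 0.014) in the same fit.

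Genes of glycolysis and hypoxia had 6 of 30 members called higher and 2 lower without lung library 1b, and with all libraries 4 were higher and 1 lower without overlap, 0 were called and the median log2 fold change was 0.12. Here DESeq2 called 3 higher and limma voom 4 higher and 2 lower, and edgeR had 5 higher and 1 lower at an unadjusted p under 0.05. Against 10.6% and 9.57% called and 10.1% and 13.5% without overlap over all genes, the counts without overlap lie near or below the background. Ndrg1, a hypoxia-induced stress gene, was at 17.7, 13.1 and 16.7 CPM in blood and 204, 25.8 and 196 CPM in lung. The lung libraries were all above blood, with 3.16 ± 0.70 (adjusted p = 0.12) with all libraries and 3.64 ± 0.27 (adjusted p = 0.001) without lung library 1b. Pfkfb3, which makes the activator of phosphofructokinase, was at 74.6, 81.3 and 174 CPM in blood and 887, 139 and 595 CPM in lung, and Hif1a at 195, 167 and 159 CPM in blood and 826, 120 and 308 CPM in lung. Vegfa, a growth factor for endothelium, was at 14.9, 21.1 and 24.4 CPM in blood and 76.6, 14.5 and 65.2 CPM in lung. In the fit without lung library 1b, the log2 fold changes were 2.74 ± 0.42 (adjusted p = 0.0057) for Pfkfb3, 1.69 ± 0.40 (adjusted p = 0.023) for Hif1a and 1.80 ± 0.28 (adjusted p = 0.006) for Vegfa. The glycolytic enzymes with the most reads, Pkm and Gapdh, were at 2529, 1959 and 2534 CPM in blood and 2241, 2629 and 3465 CPM in lung for Pkm and at 2106, 1864 and 1613 CPM in blood and 1307, 2688 and 2414 CPM in lung for Gapdh, and overlapped between tissues, with log2 fold changes of 0.25 ± 0.36 (adjusted p = 0.74) and 0.20 ± 0.39 (adjusted p = 0.82). Heat shock chaperones had 3 of 17 members called higher and 1 lower without lung library 1b, with 3 higher and 1 lower without overlap and a median log2 fold change of 0.43 with all libraries. edgeR called 0 chaperones with all libraries, with 3 higher at an unadjusted p under 0.05, while DESeq2 called 1 higher and limma voom 4 higher and 1 lower. With 10.6% and 9.57% of all genes called and 10.1% and 13.5% without overlap, these counts differ from the background by few genes. Hsp90aa1, a stress-induced HSP90, was at 38.3, 31.2 and 40.1 CPM in blood and 81.7, 30.2 and 106 CPM in lung, Dnajb4 at 10.4, 7.89 and 9.48 CPM in blood and 31.1, 8.02 and 22.6 CPM in lung and Chordc1, a co-chaperone, at 23.6, 12.1 and 21.2 CPM in blood and 4.85, 22.6 and 3.68 CPM in lung. Chordc1 was the member called lower, and the other 2 were higher in lung libraries 1a and 2. When lung library 1b was left out, the log2 fold changes were 1.35 ± 0.26 (adjusted p = 0.012) for Hsp90aa1, 1.52 ± 0.28 (adjusted p = 0.01) for Dnajb4 and -2.16 ± 0.39 (adjusted p = 0.0093) for Chordc1. The chaperones Hspa5 and Hspa8 overlapped, at 945, 254 and 556 CPM in blood and 1017, 254 and 1374 CPM in lung for Hspa5 and at 443, 256 and 347 CPM in blood and 418, 355 and 468 CPM in lung for Hspa8.

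The eicosanoid and lipid list split in both directions. Of 18 members, 5 were called higher and 5 lower without lung library 1b, and with all libraries 6 were higher and 2 lower without overlap, with a median log2 fold change of -0.14 and 0 calls. In this list DESeq2 called 3 higher and 1 lower and limma voom 7 and 4, and 7 higher and 2 lower had an unadjusted p under 0.05 in edgeR. Ptgs2 (COX-2), the inducible enzyme of prostaglandin synthesis, was at 7.04, 13.3 and 27.6 CPM in blood and 648, 67.1 and 1095 CPM in lung. Every lung library was above every blood library, and the log2 fold change was 5.24 ± 1.04 (adjusted p = 0.11) with all libraries and 5.77 ± 0.60 (adjusted p = 0.0021) without lung library 1b. Abca1, the cholesterol exporter, was at 15.1, 6.31 and 20.1 CPM in blood and 331, 23.3 and 138 CPM in lung, and Pla2g7, which inactivates platelet-activating factor, at 736, 434 and 989 CPM in blood and 2130, 1029 and 1993 CPM in lung, both without overlap. Their log2 fold changes were 3.57 ± 0.89 (adjusted p = 0.14) and 1.25 ± 0.46 (adjusted p = 0.22), and without lung library 1b 4.07 ± 0.55 (adjusted p = 0.004) and 1.51 ± 0.37 (adjusted p = 0.026). Pla2g7 shares its position with an antisense transcript, 1700071M16Rik. Plin2, the coat of lipid droplets, was at 527, 324 and 656 CPM in blood and 1666, 535 and 2047 CPM in lung, with 1.88 ± 0.35 (adjusted p = 0.011) without lung library 1b. Lower without lung library 1b were Ptgs1, Alox5, Lta4h, Pla2g4a and Tbxas1, which serve the synthesis of prostanoids and leukotrienes. Lung library 1b itself differed from the mean of blood, as log2(CPM + 1), by 0.74 for Ptgs1 and 0.56 for Tbxas1. For Pla2g4a, Alox5 and Lta4h this difference was -0.05, -0.44 and -1.18. Tbxas1, thromboxane synthase, was at 9.66, 7.67 and 23.9 CPM in blood and 1.66, 18.4 and 4.55 CPM in lung, with -2.15 ± 0.63 (adjusted p = 0.047) without lung library 1b, and overlaps Hipk2 on the other strand. Alox5ap, the partner of 5-lipoxygenase, was at 2204, 1891 and 1885 CPM in blood and 985, 2275 and 1387 CPM in lung, and overlapped, with -0.36 ± 0.40 (adjusted p = 0.65).

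Immune regulators had 10 of 19 members called higher and 0 lower without lung library 1b. There were 0 calls with all libraries, 4 were higher and 1 lower without overlap, and the median log2 fold change was 1.47. Among them DESeq2 called 6 higher and limma voom 9, and 8 had an unadjusted p under 0.05 in edgeR, all higher. Cd274 (PD-L1), a ligand that restrains T cells, was at 58.2, 14.1 and 130 CPM in blood and 1565, 21.5 and 643 CPM in lung, and Adora2a, an adenosine receptor, at 4.33, 0.947 and 8.65 CPM in blood and 108, 1.78 and 51.9 CPM in lung. Lung library 1b lay within blood for both. Havcr2 (TIM-3) was at 2.62, 3.02 and 4.52 CPM in blood and 35.1, 7.04 and 115 CPM in lung, above blood in every lung library, and Socs3, the inhibitor of cytokine signalling through STAT3, at 192, 197 and 309 CPM in blood and 1562, 294 and 1768 CPM in lung. The log2 fold changes without lung library 1b were 4.02 ± 0.81 (adjusted p = 0.014) for Cd274, 4.09 ± 0.74 (adjusted p = 0.0098) for Adora2a, 4.47 ± 0.52 (adjusted p = 0.0028) for Havcr2 and 2.83 ± 0.32 (adjusted p = 0.0027) for Socs3. With all libraries, Havcr2 had 3.96 ± 0.90 (adjusted p = 0.13). Thbs1, a matricellular protein, was at 1724, 1833 and 979 CPM in blood and 8603, 99.5 and 3827 CPM in lung, and lung library 1b was the lowest of the 6. Vsir (VISTA) was at 880, 925 and 1063 CPM in blood and 491, 1227 and 796 CPM in lung, and overlapped.

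The survival list had 6 of 14 members called higher and 0 lower without lung library 1b, and with all libraries 3 were higher (Bcl2l1, Mcl1 and Pim1) and 1 lower (Bcl2) without overlap, with a median log2 fold change of 1.12. edgeR called 0 survival genes with all libraries, with 6 higher at an unadjusted p under 0.05, while DESeq2 called 5 higher and limma voom 7. Bcl2l1 (BCL-XL) was at 59.3, 62.9 and 98.5 CPM in blood and 290, 102 and 232 CPM in lung, with a log2 fold change of 1.5 ± 0.44 (adjusted p = 0.16) with all libraries and 1.81 ± 0.31 (adjusted p = 0.0077) without lung library 1b. Mcl1, on which neutrophils depend, was at 458, 1181 and 387 CPM in blood and 2103, 1770 and 1728 CPM in lung, with 1.47 ± 0.49 (adjusted p = 0.19). Birc3, an inhibitor of apoptosis, was at 419, 182 and 339 CPM in blood and 1207, 224 and 663 CPM in lung, with 1.56 ± 0.42 (adjusted p = 0.033) without lung library 1b. Pim3, a kinase, was at 5.72, 4.37 and 4.57 CPM in blood and 46.7, 3.65 and 85.3 CPM in lung, with 3.74 ± 0.34 (adjusted p = 0.0015) in the same fit. Bcl2a1a and Bcl2a1b are near-identical copies, so their counts of unique reads are uncertain, at 11.4, 3.97 and 7.24 CPM in blood and 46.5, 6.32 and 42.8 CPM in lung for Bcl2a1a and at 13.5, 5.32 and 9.57 CPM in blood and 79.7, 13.4 and 79.1 CPM in lung for Bcl2a1b. Their log2 fold changes were 2.08 (adjusted p = 0.198) and 2.6 (adjusted p = 0.143) with all libraries. Without lung library 1b they were 2.55 (adjusted p = 0.00674) and 3.05 (adjusted p = 0.00351). The cell death list had 5 of 23 members called higher and 3 lower without lung library 1b, with 1 higher (Pmaip1) and 2 lower (Bad and Casp8) without overlap and a median log2 fold change of 0.04 with all libraries. edgeR called 0 of the 22 tested with all libraries, with 3 higher at an unadjusted p under 0.05, while DESeq2 called 3 higher and limma voom 3 higher and 3 lower. The counts without overlap lie below the 10.1% and 13.5% of all genes, and 10.6% and 9.57% of all genes were called. Pmaip1, Bcl2l11 and Bbc3 are BH3-only genes, whose products bind and block BCL-2 proteins, and were higher in lung libraries 1a and 2. Bad, also BH3-only, was lower in all 3 lung libraries. Pmaip1 (NOXA) was at 18.1, 22.1 and 41.6 CPM in blood and 243, 48.3 and 414 CPM in lung, Bcl2l11 (BIM) at 62.9, 28.2 and 60.2 CPM in blood and 536, 32 and 409 CPM in lung and Bbc3 (PUMA) at 4.93, 4.1 and 3.79 CPM in blood and 26.8, 3.38 and 30.2 CPM in lung. Leaving out lung library 1b, the log2 fold changes were 3.58 ± 0.43 (adjusted p = 0.0029) for Pmaip1, 3.21 ± 0.39 (adjusted p = 0.003) for Bcl2l11 and 2.73 ± 0.27 (adjusted p = 0.0019) for Bbc3. Fas, a death receptor, was at 177, 49.6 and 218 CPM in blood and 625, 102 and 287 CPM in lung, with 1.61 ± 0.59 (adjusted p = 0.086) without lung library 1b.

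Cell cycle arrest and p53 target genes had 11 of 25 members called higher and 1 lower (Ccng1) without lung library 1b. With all libraries 6 were higher and 1 lower without overlap, 0 were called, and the median log2 fold change was 0.67. With the same libraries DESeq2 called 8 higher and limma voom 10 higher and 1 lower, and 10 higher and 1 lower had an unadjusted p under 0.05 in edgeR. Cdkn1a (p21), an inhibitor of cyclin-dependent kinases, was at 10.5, 8.03 and 12.9 CPM in blood and 401, 12.1 and 876 CPM in lung. Lung library 1b lay within blood, and without it the log2 fold change was 5.92 ± 0.44 (adjusted p = 0.001). Plk3, a stress-induced polo-like kinase, was at 58.1, 98.3 and 45.7 CPM in blood and 1783, 98.8 and 2614 CPM in lung, Plk2 at 58.1, 27.1 and 148 CPM in blood and 1659, 54.1 and 1270 CPM in lung and Gadd45b at 51.4, 30.1 and 96.9 CPM in blood and 1291, 75.2 and 1225 CPM in lung. Without lung library 1b, their log2 fold changes were 5.02 ± 0.42 (adjusted p = 0.0014), 4.22 ± 0.65 (adjusted p = 0.0056) and 4.39 ± 0.49 (adjusted p = 0.0027). The antiproliferative genes Btg1 and Btg2 were at 225, 219 and 330 CPM in blood and 2004, 526 and 1962 CPM in lung for Btg1 and at 314, 462 and 417 CPM in blood and 1678, 651 and 2642 CPM in lung for Btg2. Both were above blood in all 3 lung libraries, with log2 fold changes of 2.54 ± 0.55 (adjusted p = 0.12) and 2.06 ± 0.53 (adjusted p = 0.14), and without lung library 1b 2.93 ± 0.31 (adjusted p = 0.0021) and 2.43 ± 0.33 (adjusted p = 0.0041).

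Genes of specific and gelatinase granules had more members lower than higher in lung. Their products are made in the bone marrow and stored before release. Of 27 members, 9 were called lower in lung and 1 higher (Adam8) without lung library 1b, against 9.57% and 10.6% of all genes. With all 3 lung libraries 0 were called, 7 were lower and 1 higher without overlap, against 13.5% and 10.1% of all genes, and the median log2 fold change was -0.51. DESeq2 on all libraries called 3 members lower and limma voom 9 lower and 1 higher, and edgeR had 5 lower and 2 higher at an unadjusted p under 0.05. Chil3 (Ym1), a chitinase-like lectin, was at 31180, 13870 and 15920 CPM in blood and 4752, 4195 and 6375 CPM in lung. All lung libraries, 1b among them, were below all blood libraries, and the log2 fold change was -1.99 ± 0.48 (adjusted p = 0.13) with all libraries and -1.88 ± 0.46 (adjusted p = 0.026) without lung library 1b. Mmp8, the neutrophil collagenase, was at 11610, 8980 and 10950 CPM in blood and 2953, 6928 and 4120 CPM in lung, Itgb2l at 1387, 982 and 825 CPM in blood and 286, 521 and 279 CPM in lung, Anxa1, the anti-inflammatory annexin, at 10700, 7351 and 7836 CPM in blood and 4866, 3801 and 3703 CPM in lung, and Ngp, a granule protein of the cathelicidin kind, at 59150, 35100 and 30020 CPM in blood and 24570, 13100 and 20400 CPM in lung. None of these 4 overlapped between tissues. Their log2 fold changes were -1.17 ± 0.44 (adjusted p = 0.23) for Mmp8, -1.55 ± 0.41 (adjusted p = 0.14) for Itgb2l, -1.06 ± 0.38 (adjusted p = 0.21) for Anxa1 and -1.10 ± 0.49 (adjusted p = 0.28) for Ngp. Mmp8 and Itgb2l were called without lung library 1b (adjusted p = 0.017 and 0.0088), while Anxa1 and Ngp were not (adjusted p = 0.067 and 0.16).

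Other genes of this list were below blood in lung libraries 1a and 2 but not in lung library 1b. Mmp9, gelatinase B, was at 7229, 9096 and 7039 CPM in blood and 1694, 9041 and 2644 CPM in lung, and Lyz2, lysozyme, at 3272, 1020 and 1349 CPM in blood and 258, 3411 and 513 CPM in lung. S100a8 and S100a9, which the list also holds, encode the subunits of calprotectin, a cytosolic protein. They were at 66690, 38240 and 56890 CPM in blood and 19090, 74440 and 23750 CPM in lung for S100a8 and at 50690, 36750 and 41990 CPM in blood and 20240, 54420 and 24360 CPM in lung for S100a9. For Lyz2, S100a8 and S100a9 lung library 1b was the highest of the 6 libraries. With all libraries, the log2 fold changes were -0.80 ± 0.63 (adjusted p = 0.51) for Mmp9, -0.43 ± 0.92 (adjusted p = 0.83) for Lyz2, -0.46 ± 0.62 (adjusted p = 0.71) for S100a8 and -0.39 ± 0.52 (adjusted p = 0.71) for S100a9. Without lung library 1b they were -1.85 ± 0.36 (adjusted p = 0.012), -2.30 ± 0.59 (adjusted p = 0.03), -1.34 ± 0.39 (adjusted p = 0.045) and -0.96 ± 0.35 (adjusted p = 0.086). Ly6g, part of the gate, was at 145, 144 and 157 CPM in blood and 71, 520 and 196 CPM in lung, so that lung library 1b was again the highest. The azurophil granule list had 1 of 5 members called lower (Prss57) and 0 higher without lung library 1b, and 0 of 4 without overlap with all libraries. edgeR and DESeq2 called 0 of the 4 with all libraries and limma voom 2 lower, and 0 had an unadjusted p under 0.05 in edgeR. Mpo, Elane, Ctsg and Bpi did not pass the filter with all libraries, Prtn3 was at 3.1, 3.29 and 4.67 CPM in blood and 0.185, 8.11 and 1.41 CPM in lung and Cd63 at 545, 382 and 545 CPM in blood and 679, 225 and 601 CPM in lung.

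Lysosome and galectin genes had 1 of 22 members called higher (Ctsl) and 4 lower (Hexa, Grn and Asah1 among them) without lung library 1b, and with all libraries 1 was higher and 1 lower without overlap, with a median log2 fold change of 0.35. edgeR called 0 of these with all libraries, with 1 higher and 1 lower at an unadjusted p under 0.05, while DESeq2 called 1 lower and limma voom 2 higher and 4 lower. Of all genes, 10.6% were called higher and 9.57% lower, and the counts without overlap lie below the 10.1% and 13.5% of all genes. Ctsl, cathepsin L, was at 33.6, 31.2 and 33.3 CPM in blood and 81.8, 34.1 and 92.3 CPM in lung, with 1.09 ± 0.39 (adjusted p = 0.21) with all libraries and 1.40 ± 0.23 (adjusted p = 0.0076) without lung library 1b. Grn (progranulin) was at 219, 189 and 195 CPM in blood and 56.8, 463 and 70.2 CPM in lung, Asah1 at 176, 150 and 204 CPM in blood and 51.5, 175 and 57.6 CPM in lung and Hexa at 91.2, 72.2 and 87.4 CPM in blood and 25.8, 110 and 36.2 CPM in lung, and lung library 1b was above blood for Grn and Hexa and within it for Asah1. On leaving lung library 1b out, the log2 fold changes were -1.67 ± 0.27 (adjusted p = 0.0066) for Grn, -1.70 ± 0.28 (adjusted p = 0.0068) for Asah1 and -1.44 ± 0.29 (adjusted p = 0.013) for Hexa. Lgals3 (galectin-3) and Ctsd (cathepsin D) overlapped, at 1685, 895 and 1580 CPM in blood and 1314, 1315 and 1717 CPM in lung for Lgals3 and at 821, 624 and 1295 CPM in blood and 1320, 1212 and 1764 CPM in lung for Ctsd. Interferon-stimulated genes had the smallest share of calls among the 21 lists without lung library 1b, with 2 of 44 higher (Irf1 and Iigp1) and 0 lower both without lung library 1b and by the absence of overlap, and a median log2 fold change of -0.11. By DESeq2 with all libraries 2 were called higher, by limma voom 2 higher and 4 lower, and by edgeR 0, with 2 higher at an unadjusted p under 0.05. Irf1 was at 146, 142 and 141 CPM in blood and 456, 176 and 724 CPM in lung, with 1.66 ± 0.50 (adjusted p = 0.17) with all libraries and 2.04 ± 0.29 (adjusted p = 0.0047) without lung library 1b. Slfn4 and Slfn1 were at 3663, 1511 and 2643 CPM in blood and 2517, 3209 and 1780 CPM in lung for Slfn4 and at 577, 394 and 567 CPM in blood and 338, 475 and 370 CPM in lung for Slfn1, and overlapped.

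edgeR without the block called no gene lower in lung with all libraries, so the 10 genes of smallest p that were lower in lung and had at least 10 CPM in blood are given, with adjusted p-values of 0.072 to 0.099. None of the 10 overlapped between tissues. All 10 were called without lung library 1b, with adjusted p-values of 0.0033 for Fdps to 0.017 for Gm6522. Mlst8, a subunit of both mTOR complexes, was at 25.4, 43.7 and 17.8 CPM in blood and 2.96, 4.19 and 4.51 CPM in lung, with a log2 fold change of -2.90 ± 0.42 (adjusted p = 0.072), and was the single gene called lower with the block (adjusted p = 0.04). Timm21 and Dnajc19, of the mitochondrial import machinery, were at 14.2, 15.2 and 10.5 CPM in blood and 2.5, 3.3 and 3.1 CPM in lung for Timm21 and at 24.1, 16.4 and 20.3 CPM in blood and 5.87, 6.5 and 7.28 CPM in lung for Dnajc19. Lars, the cytosolic leucyl-tRNA synthetase, was at 41.4, 32.8 and 29 CPM in blood and 7.67, 12.6 and 11.6 CPM in lung, and Hcfc1, a chromatin cofactor, at 27.1, 40 and 27.7 CPM in blood and 10.7, 11.8 and 9.02 CPM in lung. Their log2 fold changes were -2.17 ± 0.34 (adjusted p = 0.073), -1.63 ± 0.30 (adjusted p = 0.093), -1.70 ± 0.31 (adjusted p = 0.093) and -1.59 ± 0.30 (adjusted p = 0.094). Fdps and Hsd17b7, enzymes of cholesterol synthesis, were at 64.3, 38.3 and 53.6 CPM in blood and 8.13, 16.3 and 8.73 CPM in lung for Fdps and at 25.2, 18.8 and 24.1 CPM in blood and 3.83, 7.84 and 5.3 CPM in lung for Hsd17b7, with -2.24 ± 0.38 (adjusted p = 0.079) and -2.01 ± 0.36 (adjusted p = 0.086). Chil4 was at 118, 49.2 and 75.6 CPM in blood and 15.1, 16.1 and 22.7 CPM in lung, with -2.17 ± 0.39 (adjusted p = 0.087), and Gm6522 at 77.2, 30.6 and 45 CPM in blood and 10.9, 11.8 and 14.5 CPM in lung, with -2.03 ± 0.39 (adjusted p = 0.099). Chil4 and the pseudogene Gm6522 are close relatives of Chil3, so their counts of unique reads are uncertain. Ms4a4a was at 84.7, 23 and 25.8 CPM in blood and 0.693, 2.49 and 2.44 CPM in lung, with -4.58 ± 0.72 (adjusted p = 0.073).

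Falls without lung library 1b were ranked among called genes with a mean of at least 10 CPM in the higher group. Lung libraries 1a and 2 also had to lie below all blood libraries. Several of the genes with the 10 largest falls in this ranking are known from monocytes and macrophages. They were Ms4a4a with -4.83 ± 0.83 (adjusted p = 0.0083), Ms4a6d with -4.86 ± 0.91 (adjusted p = 0.011), Ms4a6c with -4.57 ± 0.68 (adjusted p = 0.0053), Adgre4 with -3.88 ± 0.58 (adjusted p = 0.0054), Cd300e with -3.50 ± 0.71 (adjusted p = 0.014) and Spic with -5.05 ± 1.21 (adjusted p = 0.024). Ms4a6d was at 29.4, 5 and 7.39 CPM in blood and 0.462, 1.69 and 0.496 CPM in lung, and Cd300e at 28.1, 7.26 and 7.97 CPM in blood and 1.11, 2.4 and 1.45 CPM in lung. Beside them, the 15 markers of monocytes and macrophages summed to 1440 to 2490 CPM in blood and to 1850, 2480 and 2220 CPM in lung. Lgals3 made up most of that sum in each library. Of the 14 markers tested without lung library 1b, 3 were called lower and 0 higher. The 12 B cell markers summed to 43.1 to 220 CPM in blood and to 24.2, 58.2 and 79.6 CPM in lung, with 3 of 12 called lower without lung library 1b. The 12 alveolar macrophage markers, which include Chil3, summed to 14100 to 31300 CPM in blood and to 5040, 4760 and 6730 CPM in lung. Nearly all of that sum was Chil3, so it says little about the other markers. The 10 markers of neutrophil identity summed to 108000 to 149000 CPM in blood and to 62800, 161000 and 76200 CPM in lung, and those of immature and cycling neutrophils to 51000 to 112000 CPM in blood and to 37300, 20500 and 34600 CPM in lung. S100a8 and S100a9 made up most of the identity sum, and Ngp and Chil3 most of the other. The 11 dendritic cell markers summed to 57.4, 50.8 and 172 CPM in blood and to 189, 34.6 and 260 CPM in lung, so that, as for the NF-κB genes, lung libraries 1a and 2 were above blood and lung library 1b was not. None of the 9 tested without lung library 1b was called. The 10 markers of eosinophils, basophils and mast cells summed to 7.27 to 11 CPM in blood and to 26.8, 32 and 12.2 CPM in lung, and the 10 platelet markers to 20.6 to 41.6 CPM in blood and to 71.8, 37.5 and 32.4 CPM in lung. The 16 T and NK cell markers summed to 13.1 to 14.4 CPM in blood and to 11.2, 13.8 and 14.8 CPM in lung, and the 8 erythroid markers to 260 to 1710 CPM in blood and to 121, 1430 and 510 CPM in lung. The part of these cell types in the results was not tested. Sqle, the squalene epoxidase of cholesterol synthesis, was also among these 10 genes, at 35, 28.7 and 47.8 CPM in blood and 1.85, 18.4 and 3.02 CPM in lung, with -3.94 ± 0.40 (adjusted p = 0.0019). Sdf2l1, Cd200r1 and Ly6g5b complete these 10 genes, with -3.87 ± 1.03 (adjusted p = 0.033), -3.40 ± 0.29 (adjusted p = 0.0014) and -3.32 ± 0.74 (adjusted p = 0.019). Rises were ranked under the same conditions, with lung libraries 1a and 2 above all blood libraries. Of the 10 largest rises in that ranking, 9 are described above. The other is the lincRNA Gm43936, at 0, 0.18 and 0.0972 CPM in blood and 8.96, 1.16 and 23.9 CPM in lung, with 7.43 ± 0.79 (adjusted p = 0.0022).

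Naive WT mice were compared to ask whether the lung cells already differed from blood without sepsis. In naive mice edgeR called 0 of 15967 genes (0%) between lung and blood, with 406 at an unadjusted p under 0.05. The lung libraries lay above all blood libraries for 616 genes (3.86%) and below for 580 (3.63%). CPM of naive mice are scaled among the naive libraries and are compared only between tissues. Of the 30 immediate early genes, 5 were higher and 0 lower in lung without overlap, and the median log2 fold change was 0.29. Fos was at 5805, 2907 and 4698 CPM in naive blood and 4645, 6363 and 3878 CPM in naive lung, and Fosb at 40.6, 16 and 34.4 CPM in naive blood and 44.7, 55.9 and 67.4 CPM in naive lung. The naive log2 fold changes were 0.15 ± 0.39 (adjusted p = 1.00) and 0.88 ± 0.35 (adjusted p = 1.00), against 2.63 ± 0.41 (adjusted p = 0.073) and 4.61 ± 0.51 (adjusted p = 0.048) at 12 hours. Il1b was at 6103, 3783 and 5996 CPM in naive blood and 7165, 8236 and 11190 CPM in naive lung and Ptgs2 at 1343, 312 and 1077 CPM in naive blood and 747, 1133 and 1999 CPM in naive lung, with naive log2 fold changes of 0.74 ± 0.37 (adjusted p = 1.00) and 0.51 ± 0.60 (adjusted p = 1.00). Of these 4 genes, Fosb and Il1b were already higher in naive lung without overlap. Il23a and Cxcl1 were as well. Il23a was at 0.776, 0.151 and 0.434 CPM in naive blood and 7.42, 14.6 and 31 CPM in naive lung, with a naive log2 fold change of 5.15 ± 0.78 (adjusted p = 1.00), and Cxcl1 at 0.449, 0.301 and 0.738 CPM in naive blood and 3.2, 4.07 and 12.4 CPM in naive lung, with 3.67 ± 0.79 (adjusted p = 1.00). The markers of lung endothelium and stroma summed to 20.3, 90.4 and 52 CPM in naive blood and to 84.3, 314 and 60.2 CPM in naive lung, and overlapped. Of these 16 markers, 5 were higher and 0 lower in naive lung without overlap, against 3.86% and 3.63% of all genes, with a median log2 fold change of 1.65. Of 12 tested chemokine ligands, 6 were higher and 0 lower in naive lung without overlap, with a median log2 fold change of 1.24.

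**Figure D4:**
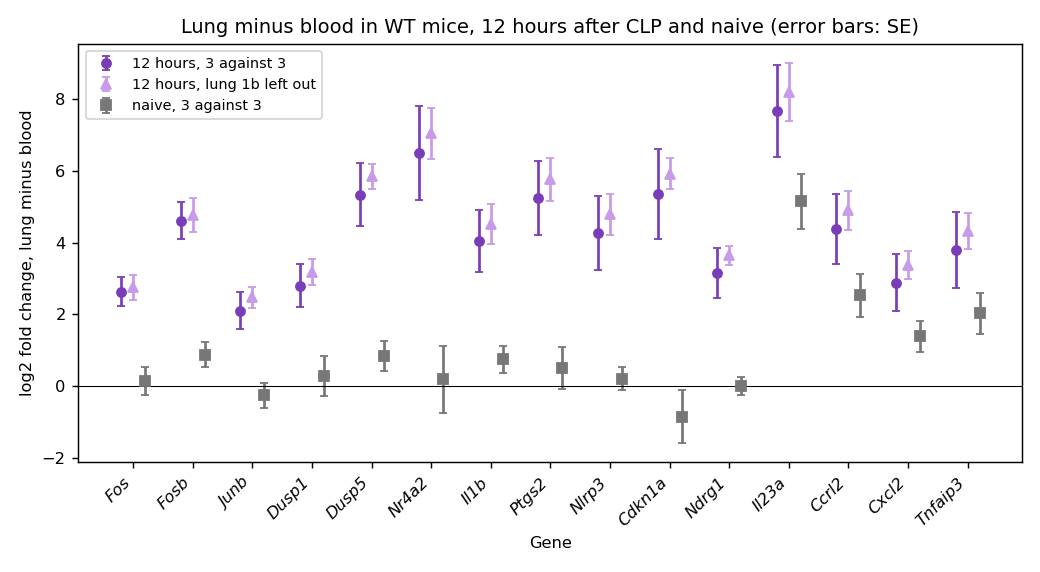
Log2 fold change of lung minus blood (vertical axis) for 15 genes at 12 hours with 3 libraries against 3, at 12 hours without lung library 1b, and in naive mice, with error bars of 1 SE. Fos and Junb lie near 0 in naive mice, while Il23a and Ccrl2 are already above 0 there.

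The difference of the tissue differences was tested as an interaction over the 12 WT libraries. With all libraries edgeR called 0 of 23497 genes (0%), while 1290 had an unadjusted p under 0.05. DESeq2 called 94. With the block edgeR called 13. Without lung library 1b at 12 hours it called 176 of 25897, of which 98 had a larger lung minus blood difference at 12 hours (0.378%) and 78 a smaller one (0.301%). Of the 30 immediate early genes, 6 were among the 98, namely Fosb, Fosl1, Ier3, Nr4a2, Dusp5 and Ppp1r15a. Dusp5 had an interaction of 4.49 ± 1.08 (adjusted p = 0.88) with all libraries and 4.98 ± 0.61 (adjusted p = 0.019) without lung library 1b, and Fosb 3.69 ± 0.68 (adjusted p = 0.88) and 3.88 ± 0.62 (adjusted p = 0.029). Cdkn1a, Nlrp3, Ndrg1 and Ptgs2 were also among them, with 6.74 ± 1.05 (adjusted p = 0.029), 4.53 ± 0.75 (adjusted p = 0.03), 3.59 ± 0.43 (adjusted p = 0.019) and 5.24 ± 0.99 (adjusted p = 0.046). In no chemokine ligand did the interaction pass in either fit, and Cxcl2 had 1.5 ± 1.09 (adjusted p = 0.88) with all libraries and 1.97 ± 0.76 (adjusted p = 0.34) without lung library 1b.

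Each tissue's own change between naive mice and 12 hours, from the same 12 libraries, was fitted beside the interaction. Fos changed by -3.37 ± 0.53 on the log2 scale in blood and by -0.98 ± 0.49 in lung. For Ptgs2 these changes were -5.44 ± 1.10 and -0.69 ± 0.92, and for Il1b -2.96 ± 0.83 and 0.30 ± 0.78. Clec7a changed by -6.23 ± 0.78 in blood and by -3.70 ± 0.69 in lung. In these 4 genes the level in blood was far below that of naive blood, and lung changed less. Clec7a was still well below its naive level in lung. Cdkn1a and Nr4a2 were above the naive level in lung but not in blood, with -1.10 ± 1.11 in blood and 5.11 ± 1.30 in lung for Cdkn1a and -2.66 ± 1.20 and 3.64 ± 1.15 for Nr4a2. Cxcl2 was above the naive level in both tissues, by 1.75 ± 0.79 in blood and 3.26 ± 0.84 in lung. These within-tissue values are given as a description, with no call.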

How the data were processed

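RNA of sorted neutrophils was amplified as full-length cDNA, and libraries were made with the Nextera XT transposase kit. The submitters' processing notes name Trimmomatic 0.36, STAR 2.5.2b and the builds GRCm38 and mm10. The authors deposited raw counts of unique reads in the exons of 49315 genes, 1 file per library. Whether strand was used is not given in the sources used here. The 12 files of αD KO mice were not used. Files 1a and 1b of sample 1 were treated as separate libraries, and were summed in an alternative. Their counts differed beyond counting noise, which separate preparations of a single sample would show as well, so this does not make them separate samples.

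Counts were tested with edgeR 4.0.16 (filterByExpr, TMM, quasi-likelihood F test) in R 4.3.3 with Benjamini-Hochberg adjustment. Calls needed a log2 fold change beyond 1 in either direction and an adjusted p below 0.05. DESeq2 1.42.0 and limma 3.58.1 (voom with quality weights) were alternatives. The scripts were tested on simulated data. Counting intervals are at 95% and cover counting error only.

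The correlation of deviations from the group means between same-numbered blood and lung libraries was 0.191 for 1a, 0.256 for 1b and 0.179 for 2. Each was over 0.1, so the library number was also fitted as a block. The labels do not state what the number marks.

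The members and the gene lists were chosen with earlier results of these data known. Genes were named by rule. The rule took the integrin, CD45 and neutrophil genes, the 10 genes of smallest p in each direction at 10 CPM or more, up to 4 called genes per list, and the 2 genes per list with the most reads that were not called. The parts on called genes were also applied without lung library 1b, a choice made after the values were seen. In that fit the 10 largest changes per direction were taken among called genes at 10 CPM or more. Lung libraries 1a and 2 could not overlap blood in them. List members outside the rule that are named beside a small count were likewise picked after seeing it. A few list members are counted in the lists but not reported here by name.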

Additional observations from a re-analysis of the deposited data

Results flagged for a closer look

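For 3 genes every lung library moved one way against blood at 12 hours after CLP and every lung library moved the opposite way in naive mice. Timm21, of the mitochondrial import machinery, had a lung minus blood difference at 12 hours minus that in naive mice of -2.72 on the log2 scale. For Lars, the leucyl-tRNA synthetase, this value was -1.97. For Tnfrsf1a, TNF receptor 1, it was 1.4. The edgeR interaction test did not call any of the 3, with an adjusted p of 0.876 for each. The DESeq2 interaction test gave adjusted p-values of 2.2e-05 for Timm21, 0.00014 for Lars and 0.0029 for Tnfrsf1a.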

How the results depend on the processing

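The number of genes called depended on lung library 1b and on the test. Against 6 higher and 0 lower in lung, RLE scaling gave 10 higher, no filter on low counts 535 higher and 115 lower, and at least 10 counts in every library 1 higher. DESeq2 called 687 higher and 189 lower, limma voom with quality weights 1817 and 1508, and the 4 WT groups in a single fit 3 higher. With the files of sample 1 summed there were 469 higher and 279 lower, and with library 1b left out of both groups 2084 and 1695. With the replicate block there were 64 higher and 1 lower, and for the interaction 13 genes against 0. Among the named genes the block changed no calls other than those given above. Leaving out each library in turn gave 0 to 1534 genes higher and 0 to 1382 lower, with both upper values without lung library 1b. Without blood library 1a, 1b or 2, or lung library 2, 0 genes were called higher, and without lung library 1a 1 was. Chosen after seeing the data, DESeq2 without lung library 1b called 1839 higher and 1396 lower, and RLE without it 1704 and 1222. For the interaction, no filter gave 4 genes, DESeq2 94, and leaving out each library in turn 0 to 176, the latter without lung library 1b at 12 hours. The cause was not tested.

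Over the alternatives of the 150 named genes, 37 of 2532 values changed sign, none of them in a gene called with all libraries. With the 4 WT groups in a single fit, Cd63 had -0.0141 and Lgals3 -0.0525. Cd63 had -0.0998 with the replicate block. With library 1b left out of both groups, Gapdh had -0.0138, Itgal -0.0833, Lgals3 -0.122 and Ly6g -0.195. Grn had 0.00584 with RLE scaling and 0.0303 with at least 10 counts in every library. Lgals3 had -0.036 with the files of sample 1 summed. Without lung library 1b, DESeq2 gave 0.0221 for Itgam, 0.00804 for Itgb2 and -0.0852 for Ly6g, and RLE gave 0.0228, 0.00596 and -0.0938. Leaving out each library in turn gave -0.258 to 0.371 for Cd63, -0.425 to 0.645 for Fpr1, -0.0088 to 0.418 for Gapdh, -1.67 to 0.321 for Grn and -0.0556 to 0.617 for Itgal. It gave -0.426 to 0.0394 for Itgam, -0.275 to 0.0308 for Itgb2, -0.147 to 0.319 for Lgals3, -0.164 to 1.2 for Ly6g and -2.3 to 0.159 for Lyz2. For Pkm the range was -0.00989 to 0.382, for Prtn3 -2.19 to 0.271, for Ptprc -0.279 to 0.372, for Slfn4 -0.292 to 0.341 and for Vsir -0.579 to 0.0334. Of the 6 libraries at 12 hours, lung library 1b had the lowest depth and counts in the most genes.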
